A study of Homo sapiens with 9 samples.

Results

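The genes described here are those of the inhibitors of cyclin-dependent kinases (CDKs) and of the machinery that degrades one of them, the protein p27. They were CDKN1A, CDKN1B, CDKN1C, CDKN2A, CDKN2B, CDKN2C, CDKN2D, CDKN3, SKP2 and CKS1B, 10 genes in all. Their probes were chosen by gene symbol in the platform annotation, without regard to signal. That gave 19 of the 47231 probes on the array, for 9 of the 10 genes, since no probe carried the symbol CDKN2C in the annotation used here. Of these, 11 probes passed the filter on dim signal, out of 22011 that passed on the whole array, and they brought 7 of the genes into a test across 12498 genes. CDKN1B and SKP2 passed with all of their probes, 2 and 3, and so did CKS1B with 2 and CDKN3 with 1. CDKN1A and CDKN2D each passed with 1 of 2 probes and CDKN2B with 1 of 3, while the probe of CDKN1C and the 3 probes of CDKN2A did not pass.

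Cyclin-dependent kinases drive cells through the cell cycle, and small inhibitor proteins bind them and hold them back. The CIP/KIP inhibitors p21 (CDKN1A), p27 (CDKN1B) and p57 (CDKN1C) bind cyclin-CDK complexes, whereas the INK4 inhibitors p16 (CDKN2A), p15 (CDKN2B), p18 (CDKN2C) and p19 (CDKN2D) bind CDK4 and CDK6. The amount of p27 is set largely by protein degradation: SKP2 is the F-box protein that recognises phosphorylated p27 for a ubiquitin ligase, and CKS1B encodes the small cofactor that this recognition needs. In pancreatic neuroendocrine tumours the pathway is known from the tumour suppressor menin, which maintains expression of CDKN1B.

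The cells were of the established line BON-1, derived from a human pancreatic neuroendocrine tumour, and their total RNA was hybridised to 9 Illumina HumanHT-12 v4 BeadChips in 1 colour. The control group carried the vector, and the knockdown groups carried a short hairpin RNA against RABL6A, a product of the RAB-like GTPase gene RABL6, in the lentiviral vector pLKO.1. The hairpins are called shRNA 1 and shRNA 2, and each of the 3 groups had 3 arrays, numbered 1 to 3. The labels speak of sets of cells generated separately and do not say how far the replicates were independent cultures, so p-values measure only the spread between these samples. All groups share the BON-1 background and the vector, and no group of cells without vector was analysed here. The arrays measured RNA in bulk, where fewer cells of a type and less RNA per cell cannot be told apart.

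The targeted gene was lower on all knockdown arrays. The RABL6 probe had log2 signals of 7.57, 7.73 and 7.82 with vector, against 5.22 to 6.01 on the 6 knockdown arrays, and the change over both shRNAs was -1.99 (SE 0.19, limma adjusted p = 0.0014). Its raw knockdown signals reached down to 130, close to the array medians of 119 to 129, so the size of this change depends on the background step. The neuroendocrine identity of the cells was visible on each array, with 7 of 7 marker genes that had a probe detected on all 9 arrays. The summed normalised signal of these markers was 65192 to 66862 with vector, 49935 to 62056 with shRNA 1 and 51729 to 59905 with shRNA 2. No array detected the leukocyte genes PTPRC and CD3E, the endothelial genes PECAM1 and CDH5 or the fibroblast genes COL3A1 and LUM. The fibroblast genes COL1A1, COL1A2, DCN and PDGFRB and the endothelial gene VWF were each detected on some arrays but not on all. The summed signal of the 6 fibroblast markers was 148 to 161 with vector and 156 to 190 with the shRNAs, and that of the 4 endothelial markers 118 to 124 and 141 to 241, with KDR as the endothelial gene detected on all arrays. The 4 leukocyte markers with a probe summed to 131 to 151 with vector and to 125 to 168 with the shRNAs, with CD14 and LYZ detected on all arrays. The part of these marker differences in the results below was not tested.

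The shRNA arrays numbered 2 went against their labels. Across the tested genes, shRNA 1 replicate 2 correlated at 0.994 and 0.989 with shRNA 2 replicates 1 and 3, but at 0.933 and 0.945 with the other shRNA 1 arrays. In the same way, shRNA 2 replicate 2 correlated at 0.995 and 0.989 with shRNA 1 replicates 1 and 3, but at 0.933 and 0.939 with the other shRNA 2 arrays. The groups below follow the labels, and each main result is also given without these arrays, which leaves 3 vector arrays and 2 arrays for each shRNA (7 arrays). Leaving them out also narrows the spread within each shRNA group for many genes, but not for all. For CDKN3 the kept shRNA 1 arrays read 9.37 and 10.26, and the array left out lay between them at 9.62.

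The promoters of CDKN1B, SKP2, CKS1B and CDKN3 are shown for reference, as these genes changed in the main comparison and because CKS1B and CDKN3 belong to genes known to peak late in the cell cycle, whose promoters often carry a CHR element (TTTGAA) and CCAAT boxes. Each line holds the 250 bases before the start of the gene in RefSeq (GRCh38.p14, all on the plus strand), with matches to either motif on either strand in capitals.

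CDKN1B, chr12:12717118-12717367: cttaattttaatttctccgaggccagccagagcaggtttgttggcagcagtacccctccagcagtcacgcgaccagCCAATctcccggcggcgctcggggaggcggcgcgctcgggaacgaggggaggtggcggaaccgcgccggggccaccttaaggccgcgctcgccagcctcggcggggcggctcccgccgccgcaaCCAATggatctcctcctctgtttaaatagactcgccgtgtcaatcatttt
SKP2, chr5:36151861-36152110: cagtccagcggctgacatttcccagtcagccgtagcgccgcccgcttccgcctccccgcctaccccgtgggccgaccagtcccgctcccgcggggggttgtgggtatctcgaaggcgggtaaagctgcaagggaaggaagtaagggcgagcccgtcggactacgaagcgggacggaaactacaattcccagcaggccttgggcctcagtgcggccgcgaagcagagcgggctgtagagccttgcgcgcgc
CKS1B, chr1:154974431-154974680: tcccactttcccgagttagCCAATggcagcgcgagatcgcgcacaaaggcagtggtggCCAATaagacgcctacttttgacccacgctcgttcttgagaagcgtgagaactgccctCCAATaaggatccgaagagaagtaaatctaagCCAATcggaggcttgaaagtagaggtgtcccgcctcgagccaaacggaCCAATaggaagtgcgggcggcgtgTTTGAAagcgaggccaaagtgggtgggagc
CDKN3, chr14:54396757-54397006: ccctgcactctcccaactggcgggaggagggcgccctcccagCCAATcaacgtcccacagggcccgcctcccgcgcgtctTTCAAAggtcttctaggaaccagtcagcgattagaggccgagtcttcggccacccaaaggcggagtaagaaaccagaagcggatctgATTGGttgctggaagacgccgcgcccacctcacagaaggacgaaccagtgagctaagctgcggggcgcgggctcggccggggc

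The CKS1B window held 5 CCAAT boxes and 1 CHR match, which begins 30 bases before the start. The CDKN3 window held 2 CCAAT boxes, 1 of them on the opposite strand, and 1 CHR match, on the opposite strand, 170 bases before the start. The CDKN1B window held 2 CCAAT boxes and no CHR match, and the SKP2 window held neither motif. Of 35116 such windows over all RefSeq genes, 13.3% held the letters TTTGAA and 32% the letters CCAAT on either strand. The E2F letters TTTGGCGC, TTTCGCGC or TTTCCCGC stood in 2.32% of the windows and in none of the 4 shown. These are matches of letters only.

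The main comparison set both shRNAs against vector, the contrast named by the study's design. CDKN1B RNA was higher with the knockdown, and SKP2, CKS1B and CDKN3 RNA was lower, and for each of them the knockdown and vector arrays did not overlap. How many of all 12498 genes were separated in this way was not counted, so the lack of overlap is only a description. The 4 called genes are out of 7 tested, 1 higher and 3 lower, against 16.6% of all 12498 genes called in this comparison (8.54% higher and 8.09% lower). On 7 arrays 5 of 7 were called, with CDKN1A added, 2 higher and 3 lower, against 41.2% of all genes (20.7% higher and 20.5% lower). The median change of the 7 genes was -0.11 on the log2 scale, beside 0.03 over all genes. The 7 include CDKN2B, which was not called and passed the filter only through knockdown arrays. Its vector level is only a bound, and the median would lie lower without it.

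**Figure D1:**
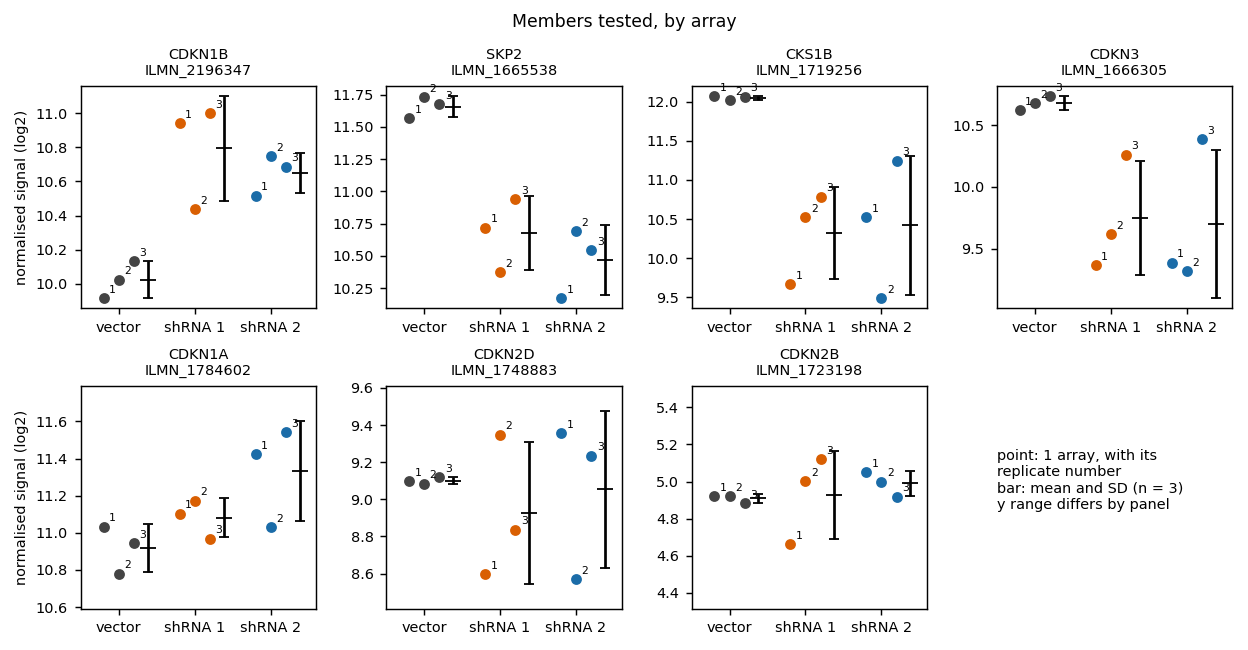
Normalised log2 signal of the 7 tested genes on each array, with 1 panel per gene and its probe; points are arrays with their replicate number, and bars are the mean and SD of 3 arrays. In CDKN1B, SKP2, CKS1B and CDKN3 the vector and knockdown arrays do not overlap, and in CDKN2D the knockdown arrays lie on both sides of the vector arrays, from 8.57 to 9.36.

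CDKN1B, the gene of p27, had log2 signals of 9.91, 10.02 and 10.13 with vector on the probe used in the gene test (ILMN_2196347). They were 10.94, 10.44 and 11.00 for shRNA 1 and 10.52, 10.75 and 10.69 for shRNA 2. The lowest knockdown array, shRNA 1 replicate 2, still lay above the highest vector array. The mean was 10.02 ± 0.11 (SD, n = 3) for vector, 10.79 ± 0.31 (SD, n = 3) for shRNA 1 and 10.65 ± 0.12 (SD, n = 3) for shRNA 2. The log2 change over both shRNAs was 0.70 (SE 0.15, limma adjusted p = 0.0175), which is 162% of the vector signal, and 0.76 on 7 arrays (adjusted p = 0.00089). Its call was lost when any of the vector arrays was left out, with an adjusted p of up to 0.0901. The share of all genes called fell as well, from 16.6% to between 3.91% and 4.4%.

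The other CDKN1B probe (ILMN_1722811) gave 9.56, 9.31 and 9.62 with vector. It read 10.40, 9.87 and 10.09 for shRNA 1 and 10.02, 10.22 and 10.12 for shRNA 2, so that again no knockdown array fell as low as a vector array. In the fit over all 22011 probes this probe changed by 0.62 (SE 0.15, limma adjusted p = 0.0273) and ILMN_2196347 by 0.70 (adjusted p = 0.0198), where 13.2% of all probes were called on 9 arrays and 32.2% on 7. The changes of the 2 probes differed by 0.08 (exact permutation p = 0.524, two-sided, 6 arrays against 3).

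CDKN1A encodes p21, the inhibitor best known as a target of p53. Its measured probe (ILMN_1784602) was bright, at 11.03, 10.78 and 10.94 with vector. It read 11.10, 11.17 and 10.97 for shRNA 1 and 11.42, 11.03 and 11.54 for shRNA 2. The highest knockdown arrays were shRNA 2 replicates 1 and 3, while shRNA 1 replicate 3 and shRNA 2 replicate 2 lay within the vector range. The change over both shRNAs was 0.29 (SE 0.14, 95% interval -0.04 to 0.61, limma adjusted p = 0.205) on 9 arrays and 0.34 (adjusted p = 0.0314) on 7. With array weights on 9 arrays it was 0.32 and also called (adjusted p = 0.0192). The change on 7 arrays was not alike for the hairpins. It was 0.12 with shRNA 1 (limma adjusted p = 0.486) and 0.56 with shRNA 2 (adjusted p = 0.0097). The other CDKN1A probe (ILMN_1787212) was detected on no array, with raw signals of 105 to 126. Its log2 signals were 4.62 to 4.74 with vector and 4.44 to 4.55 with the shRNAs. The groups thus did not overlap even below detection, and no change is read from this probe.

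CDKN2D, the gene of the INK4 inhibitor p19, was measured by 1 probe (ILMN_1748883) with close vector values of 9.10, 9.08 and 9.12. The probe read 8.60, 9.35 and 8.84 for shRNA 1 and 9.36, 8.57 and 9.23 for shRNA 2. None of the 6 knockdown arrays lay inside the vector range. In shRNA 1 replicates 1 and 3 and shRNA 2 replicate 2 the gene was below it, and in shRNA 2 replicates 1 and 3 and shRNA 1 replicate 2 above it, which is the division that the correlations across genes also showed. The change over both shRNAs was -0.11 (SE 0.22, 95% interval -0.60 to 0.38, limma adjusted p = 0.766), and -0.09 on 7 arrays (adjusted p = 0.488).

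CDKN2B, the gene of p15, passed the filter on 1 of 3 probes (ILMN_1723198) and only through the knockdown arrays: the probe was detected on 4 of these 6 and on no vector array. Its log2 signals were 4.921, 4.922 and 4.884 with vector. They were 4.663, 5.002 and 5.121 for shRNA 1 and 5.051, 4.999 and 4.919 for shRNA 2. The groups overlapped at the edge of detection. As the vector level is only a bound, no change is given for CDKN2B, which was not called in any of the 4 comparisons.

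The other INK4 and KIP genes with a probe, CDKN2A and CDKN1C, gave no signal above background. The 3 probes of CDKN2A, which encodes p16 and the separate tumour suppressor ARF, were detected on 0 of 9 arrays, with raw signals from 97.7 to 122 and a lowest detection p of 0.1545. The CDKN1C probe was detected on 0 of 9 arrays, at 115 to 131, and its lowest detection p was 0.0792. Likewise undetected were the other probes of CDKN2B, at 108 to 128, and of CDKN2D, at 110 to 127. These signals lay around the array medians of 119 to 129, so at this sensitivity no level was measurable and no difference between groups could be read. Of the genes next to CDKN2A and CDKN2B on chromosome 9, the metabolic enzyme gene MTAP was detected on 2 of 6 knockdown and 0 of 3 vector arrays, and the antisense RNA gene CDKN2B-AS1 on none.

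**Figure D2:**
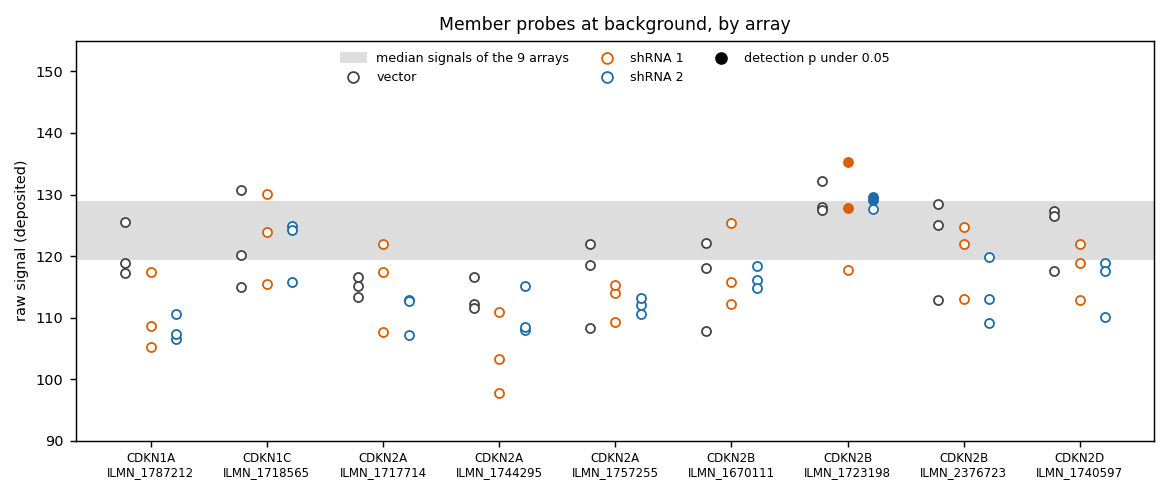
Deposited raw signal of the 9 probes of CDKN1A, CDKN1C, CDKN2A, CDKN2B and CDKN2D that were not detected on all arrays, 1 point per array, filled where the detection p was under 0.05; the grey band spans the median signals of the 9 arrays, 119 to 129. The only filled points are 4 knockdown arrays of the CDKN2B probe ILMN_1723198.

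SKP2, the F-box protein gene, fell over both shRNAs on all 3 of its probes. The probe used in the gene test (ILMN_1665538) read 11.57, 11.73 and 11.68 for vector. It read 10.72, 10.37 and 10.94 for shRNA 1 and 10.17, 10.69 and 10.54 for shRNA 2. All knockdown arrays lay well below the lowest vector array. In the same order of groups the means were 11.66 ± 0.08 (SD, n = 3), 10.68 ± 0.28 (SD, n = 3) and 10.47 ± 0.27 (SD, n = 3). The log2 change of SKP2 was -1.08 (SE 0.17, limma adjusted p = 0.0055), which is 47.2% of the vector signal, and -1.06 on 7 arrays (adjusted p = 0.00053). It was the gene of the 7 whose call was kept in all 23 alternatives, with an adjusted p of at most 0.0408.

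The platform annotation ties this probe to one SKP2 transcript record and the other 2 probes to another. The probe ILMN_1791002 read 10.12, 10.22 and 9.99 for vector. It read 8.49, 8.06 and 8.81 for shRNA 1 and 8.46, 8.40 and 8.53 for shRNA 2. With shRNA 2 these arrays lay within a narrow range, whereas with shRNA 1 they were more spread. Its change was -1.65 (SE 0.17, limma adjusted p = 0.0016), and that of the third probe (ILMN_1801391) was -0.68 (SE 0.18, adjusted p = 0.0388), both in the fit over all probes.

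The SKP2 probes did not change by the same amount. The change of ILMN_1791002 minus that of ILMN_1665538 was -0.57, with no overlap between knockdown and vector arrays in the within-array difference (two-sided exact permutation p = 0.0119, the smallest that 84 splits allow, and 0.0357 adjusted over the 3 probe pairs compared). On 7 arrays their changes were -1.54 and -1.06. The third probe had log2 signals of 5.94, 6.29 and 6.13 with vector and 5.03 to 5.72 with the shRNAs, near the lowest detected signals, where changes are understated. Which transcripts each probe reads was not examined.

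**Figure D3:**
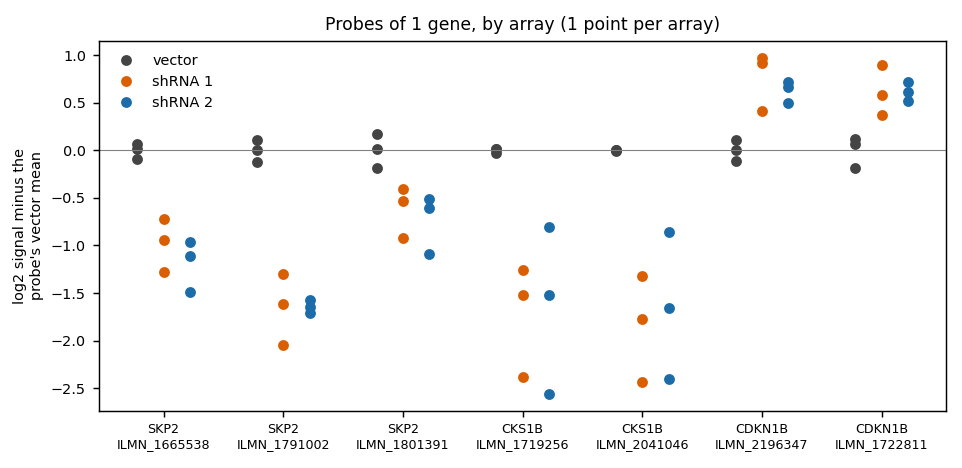
Log2 signal minus the vector mean of the same probe for the 7 detected probes of SKP2, CKS1B and CDKN1B, 1 point per array. The mean changes of the 3 SKP2 probes were -1.08, -1.65 and -0.68, whereas those of the 2 CKS1B probes were -1.68 and -1.74 and those of the 2 CDKN1B probes 0.70 and 0.62.

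CKS1B, the gene of the SKP2 cofactor, had the largest mean change of the 7 tested genes and the widest spread among knockdown arrays. The probe used in the gene test (ILMN_1719256) was nearly constant with vector, at 12.07, 12.02 and 12.06. It read 9.67, 10.52 and 10.79 for shRNA 1 and 10.53, 9.49 and 11.24 for shRNA 2. The lowest arrays were shRNA 2 replicate 2 and shRNA 1 replicate 1, and the highest knockdown array, shRNA 2 replicate 3, was still below every vector array. The means were 12.05 ± 0.02 (SD, n = 3), 10.33 ± 0.59 (SD, n = 3) and 10.42 ± 0.88 (SD, n = 3). The log2 change of CKS1B was -1.68 (SE 0.37, limma adjusted p = 0.0191), which is 31.3% of the vector signal, and -1.49 on 7 arrays (adjusted p = 0.0030).

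The other CKS1B probe (ILMN_2041046) read 11.20, 11.21 and 11.21 for vector. It read 8.77, 9.43 and 9.89 for shRNA 1 and 9.54, 8.80 and 10.35 for shRNA 2. The arrays fell in nearly the same order, with shRNA 1 replicate 1 and shRNA 2 replicate 2 again the lowest. Its change was -1.74 (SE 0.33, limma adjusted p = 0.0129), and the changes of the 2 probes differed by -0.07 (exact permutation p = 0.441, two-sided). The call for CKS1B was lost when any of the vector arrays was left out, with an adjusted p of up to 0.0839. In those fits 3.91% to 4.4% of all genes were called, in place of 16.6%.

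CDKN3 encodes a phosphatase that removes an activating phosphate from CDKs, and despite its symbol it is not a member of the CIP/KIP or INK4 families. Its probe (ILMN_1666305) read 10.62, 10.68 and 10.73 for vector. It read 9.37, 9.62 and 10.26 for shRNA 1 and 9.39, 9.32 and 10.39 for shRNA 2. With each shRNA, replicate 3 was the highest of the knockdown arrays and closest to vector, while the other 4 arrays lay between 9.32 and 9.62. The means were 10.68 ± 0.06 (SD, n = 3), 9.75 ± 0.46 (SD, n = 3) and 9.70 ± 0.60 (SD, n = 3). The log2 change of CDKN3 was -0.95 (SE 0.27, limma adjusted p = 0.0462), which is 51.7% of the vector signal, and -0.82 on 7 arrays (adjusted p = 0.0373). This call was close to the threshold and was lost when any of 7 of the 9 arrays was left out singly, all except shRNA 1 replicate 3 and shRNA 2 replicate 3, with an adjusted p of up to 0.160, and with no filter on dim probes (adjusted p = 0.0672). Over all genes, 3.91% to 20.7% were called in these 7 fits and 10.3% with no filter.

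Each shRNA was then set against the same 3 vector arrays, so these comparisons are not independent of each other. With shRNA 1, CDKN1B, SKP2 and CKS1B changed, 3 of 7 tested genes against 11.2% of all genes. On 7 arrays 4 were called, against 43.9% of all genes, with CDKN2D added at -0.38 (SE 0.12, limma adjusted p = 0.0315). With shRNA 2, SKP2 was the only gene of the 7 called on 9 arrays, against 8.65% of all genes, and on 7 arrays CDKN1A, CDKN1B, SKP2 and CKS1B were called, 4 of 7 against 35.3%.

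CDKN1B changed by 0.77 (SE 0.18, limma adjusted p = 0.0302) with shRNA 1 and by 0.63 (SE 0.18, adjusted p = 0.0592) with shRNA 2. SKP2 changed by -0.98 (SE 0.19, limma adjusted p = 0.0190) with shRNA 1 and by -1.19 (SE 0.19, adjusted p = 0.0119) with shRNA 2. CKS1B stood on either side of the threshold with nearly equal changes, -1.72 (SE 0.43, limma adjusted p = 0.0384) with shRNA 1 and -1.63 (SE 0.43, adjusted p = 0.0514) with shRNA 2. CDKN3 did not pass with either alone, at -0.93 (SE 0.32, limma adjusted p = 0.0960) and -0.98 (SE 0.32, adjusted p = 0.0902). With shRNA 1, the call for CDKN1B was also lost with median centring (limma adjusted p = 0.0506), and that for CKS1B with no filter on dim probes (adjusted p = 0.0557). All shRNA 1 calls were lost with the replicate number as a block, where 3.59% of all genes were called. The limma adjusted p was then 0.0761 for CDKN1B, 0.0561 for SKP2 and 0.0732 for CKS1B. The number of genes called with shRNA 1 fell to 0 when any vector array or shRNA 1 replicate 1 was left out, and to 1 without shRNA 1 replicate 3. The share of all genes called fell as well, from 11.2% to between 1.1% and 1.23% without a vector array, to 2.19% without shRNA 1 replicate 1 and to 6.55% without shRNA 1 replicate 3. With shRNA 2 it fell to 0 when any vector array or shRNA 2 replicate 1 was left out, and rose to 2 without shRNA 1 replicate 1 and to 3 without shRNA 1 replicate 2 or shRNA 2 replicate 3. Here the share of all genes fell from 8.65% to between 0.944% and 1.01% without a vector array and to 1.47% without shRNA 2 replicate 1. The share was 7.27% without shRNA 1 replicate 1, 12.8% without shRNA 1 replicate 2 and 8.94% without shRNA 2 replicate 3.

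**Figure D4:**
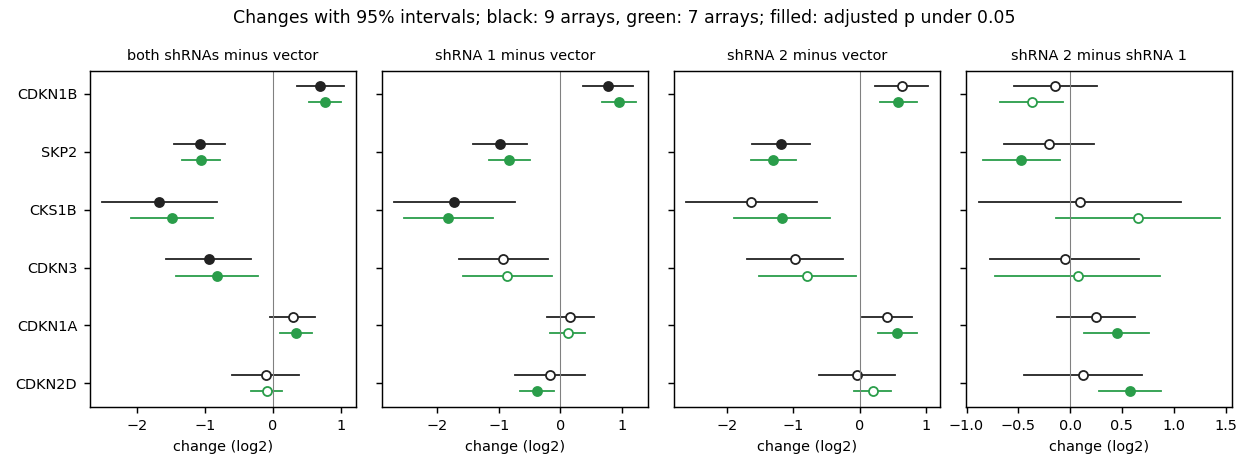
Change on the log2 scale with its 95% interval for 6 of the 7 tested genes, all except CDKN2B, in the 4 comparisons, on 9 arrays (black) and on 7 arrays (green), filled where the limma adjusted p was under 0.05. SKP2 is filled in the 3 comparisons with vector, at -1.08, -0.98 and -1.19 on 9 arrays, and no gene is filled on 9 arrays between the shRNAs.

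Between the shRNAs, none of the 7 genes was called by limma on 9 arrays, where 0% of all 12498 genes were called. At an unadjusted p under 0.05 there were 0 of the 7 genes and 96 of all genes. The 95% intervals of shRNA 2 minus shRNA 1 were wide for CKS1B, from -0.88 to 1.07, and for CDKN3, from -0.77 to 0.67. They ran from -0.54 to 0.26 for CDKN1B, from -0.64 to 0.23 for SKP2, from -0.13 to 0.63 for CDKN1A and from -0.44 to 0.70 for CDKN2D. On 7 arrays 3 of the 7 genes were called, close to the share of 41.2% over all genes. They were CDKN2D at 0.58 (SE 0.13, limma adjusted p = 0.0086), CDKN1A at 0.45 (SE 0.14, adjusted p = 0.0307) and SKP2 at -0.47 (SE 0.16, adjusted p = 0.0457). These rest on 2 arrays for each shRNA, kept after the profiles of the arrays were seen, and the SKP2 difference was -0.15 (adjusted p = 0.505) on the probe ILMN_1791002.

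For CDKN1B, SKP2 and CDKN3 the genes with the most similar pattern over the 9 arrays were found by the root mean square difference of log2 values, each relative to the gene's own vector mean. Closest to CDKN1B were NUDT9, an ADP-ribose pyrophosphatase gene, at 0.115, DCP2, an mRNA decapping enzyme gene, at 0.118, and MAL2, a membrane trafficking gene, at 0.119. Closest to SKP2 were INSM1, a transcription factor gene that is also one of the neuroendocrine markers, at 0.0915, TMTC1 at 0.106 and APEX2, a DNA repair endonuclease gene, at 0.122. Closest to CDKN3 were the centriole gene POC1A at 0.138, the condensin subunit gene NCAPD2 at 0.149 and the ubiquitin-conjugating enzyme gene UBE2T at 0.156.

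The wider pathway was described with 6 lists of genes, by counts and medians beside the same over all genes, of which 16.6% were called on 9 arrays with a median change of 0.03. The CDKs and cyclins that the inhibitors bind had the lowest median, -1.06 over 8 tested of 11 listed genes, with 0 higher and 3 lower. The lowest change of the 8 was that of CDK2, -2.08 (SE 0.73, limma adjusted p = 0.0879), not called on 9 arrays. On 7 arrays CDK2 was at -1.95 and called (adjusted p = 0.00075). Of the genes called on 9 arrays, CCNA2, cyclin A of S phase, changed by -1.61 (SE 0.40, limma adjusted p = 0.0288). CDK6, a kinase bound by INK4 proteins, changed by -0.999 (SE 0.14, adjusted p = 0.0044), and CCNE1, a cyclin E, by -0.996 (SE 0.24, adjusted p = 0.0257). On 7 arrays 6 of these 8 were lower and 0 higher, where 20.5% of all genes were lower.

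Of 16 tested genes of ubiquitin ligases for p27 and for SKP2, out of 18 listed, 1 was higher and 3 were lower, with a median of -0.07. CUL4B, a cullin scaffold of a ligase family that acts on p27, rose by 0.67 (SE 0.14, limma adjusted p = 0.0159). DTL, the receptor that brings p21 to the CUL4 ligase, changed by -1.65 (SE 0.33, adjusted p = 0.0133) and was detected on 4 of 6 knockdown arrays. FBXO5, an inhibitor of the anaphase-promoting complex that degrades SKP2, changed by -1.46 (SE 0.38, adjusted p = 0.0319). CKS2, the close relative of CKS1B, changed by -0.62 (SE 0.16, adjusted p = 0.0297). On 7 arrays 2 were higher and 6 lower of the 16, where 41.2% of all genes were called.

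Kinases that phosphorylate p27 went both ways, 2 higher and 3 lower of 13 tested out of 16 listed, with a median of 0.13. SRC, a tyrosine kinase, rose by 0.92 (SE 0.21, limma adjusted p = 0.0228) and RPS6KA3, a ribosomal S6 kinase, by 0.77 (SE 0.11, adjusted p = 0.0041). AKT1, the kinase known to hold p27 in the cytoplasm, changed by -1.61 (SE 0.24, adjusted p = 0.0054), UHMK1 by -0.68 (SE 0.13, adjusted p = 0.0112) and RPS6KA1 by -0.54 (SE 0.15, adjusted p = 0.0415). On 7 arrays 3 were higher and 3 lower of the 13, beside the 41.2% of all genes.

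Of 18 tested transcription regulators of the inhibitor genes, out of 20 listed, 1 was higher and 1 lower, with a median of -0.06. FOXO4, of the forkhead family that activates CDKN1B, rose by 1.39 (SE 0.29, limma adjusted p = 0.0150). MYC, which represses CDKN1A and CDKN2B in other settings, changed by -1.08 (SE 0.19, adjusted p = 0.0095). MEN1, the gene of menin, was tested and not called over both shRNAs, at -0.25 (SE 0.24, adjusted p = 0.502), and was named here for its known role in these tumours. Its change on 7 arrays was -0.29 over both shRNAs (limma adjusted p = 0.0571) and 0.03 with shRNA 1 (adjusted p = 0.871). With shRNA 2 it was -0.62 on 7 arrays and called (adjusted p = 0.0073), where 35.3% of all genes were called. On 7 arrays 1 of the 18 was higher and 2 were lower, again beside 41.2%. Of 10 tested Polycomb genes, out of 13 listed, which silence the CDKN2A and CDKN2B locus in many cells, JARID2 rose by 0.39 (SE 0.11, limma adjusted p = 0.0466), while EZH2, the histone methyltransferase, changed by -1.54 (SE 0.30, adjusted p = 0.0129) and PHC2 by -0.70 (SE 0.15, adjusted p = 0.0158). The median of these 10 was 0.11, and on 7 arrays 1 was higher and 3 were lower, beside 41.2% of all genes called. Neither of the 2 listed neighbours of CDKN2A and CDKN2B was bright enough to be tested.

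**Figure D5:**
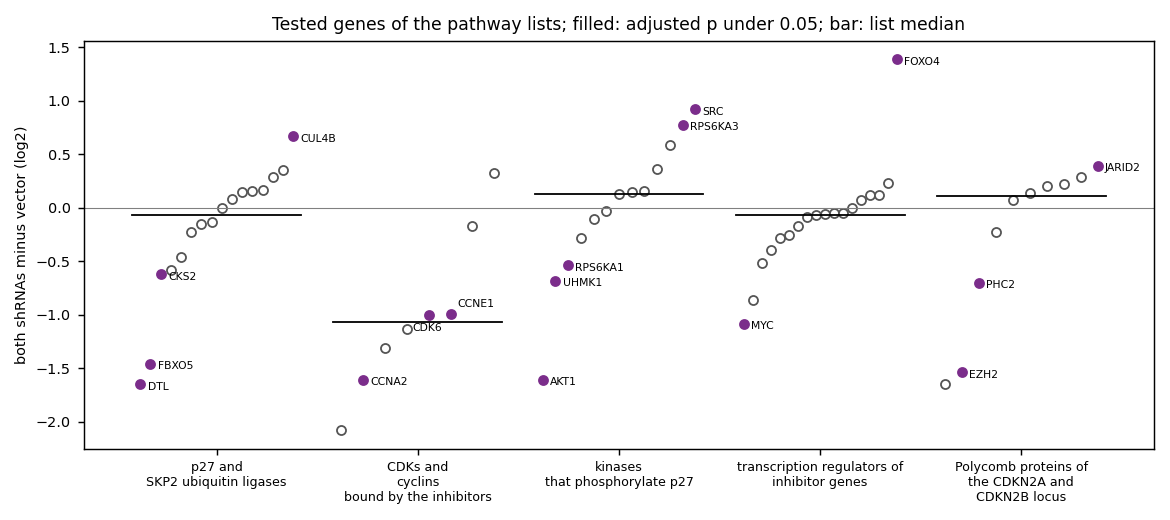
Change over both shRNAs (log2) of each tested gene of the 5 pathway lists with tested genes, filled and named where the limma adjusted p was under 0.05, with a line at the list median. The median of the CDKs and cyclins is -1.06, and those of the other lists lie between -0.07 and 0.13.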

How the data were processed

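The authors deposited, per the file headers, signal intensity values of 47231 probes that were not normalized, with a detection p-value per probe and array. The submitters' processing notes name GenomeStudio without a version. Background was corrected with nec in limma 3.58.1 (R 4.3.3) (offset 16, negative controls inferred through the detection p-values), then values were quantile normalized and taken to log2. This scale understates changes of dim genes. A probe was kept if 3 or more arrays had a detection p under 0.05, and a gene was read by its kept probe of highest mean. Probe names came from the platform annotation. The 9 arrays entered 1 linear model (lmFit, eBayes) of the 3 group means, with a call at a Benjamini-Hochberg adjusted p under 0.05 over all 12498 genes. Differences between 2 probes of a gene were tested with an exact permutation test. The authors' deposited value table of linear intensity for 47219 probes was an alternative. The genes, the lists and the fit on 7 arrays were chosen with earlier results of these data known. Genes were named by rule: all 10 genes, RABL6, up to 3 called genes in each direction of a list, and the 3 nearest genes of CDKN1B, SKP2 and CDKN3. MEN1 and CDK2 were added after their values were seen. The alternatives were other background corrections, normalizations, filters, probe rules, eBayes settings, weights, the compared groups alone, the replicate number as a block, and each array left out. The number of arrays limits the precision.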

Additional observations from a re-analysis of the deposited data

Results flagged for a closer look

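In all, 3 differences between the shRNAs were picked out because the test of the difference itself passed on 7 arrays, without the shRNA arrays numbered 2, although none passed on 9. On 7 arrays shRNA 2 minus shRNA 1 was 0.58 for CDKN2D (limma adjusted p = 0.0086), 0.45 for CDKN1A (adjusted p = 0.0307) and -0.47 for SKP2 (adjusted p = 0.0457), where 41.2% of all genes were called. A count of 3 of 7 lies close to that share, so it does not set these genes apart. On 9 arrays 0 genes were called in this comparison, so these calls rest on leaving out arrays that were chosen by their profiles in the same data. Each rests on 2 arrays per shRNA, and if the kept arrays were the ones with exchanged labels, the sign of each would turn.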

How the results depend on the processing

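Of the 661 recomputed changes of the 7 tested genes in 4 comparisons, 588 kept their side of the threshold, 38 were no longer called and 35 became called. Calls could be lost only where the main fit had them, for 4 genes over both shRNAs, 3 with shRNA 1 and 1 with shRNA 2. The 661 and the 588 thus include many changes not called to begin with, those of CDKN2B among them, and do not measure how stable the calls were. Among called changes 0 turned direction, while 21 of the 588, all of them not called, differed in sign. For both shRNAs against vector, 4 genes were called. There were 5 with array weights (44.7% of all genes called) and 7 arrays (41.2%), and 3 with no filter on dim probes (10.3%). Leaving out 1 array at a time gave 1 to 4 (3.91% to 20.7%). SKP2 was the gene left without any one of the vector arrays, where 3.91% to 4.4% of all genes were called. For shRNA 1 the 3 genes called became 0 with the replicate block (3.59% of all genes called). They became 4 with array weights (49.5%), 7 arrays (43.9%) or the compared groups alone (13.7%). They became 2 with median centring (10.4%) or no filter (7.01%), and 0 to 4 with 1 array left out (1.1% to 17.2%). For shRNA 2 the 1 gene called became 2 with median centring, cyclic loess, detection on all 9 arrays, the probe of largest interquartile range, an eBayes trend or the compared groups alone (8.79% to 11.6% of all genes called). It became 3 with no background correction, normexp or the mean of the kept probes (9.03% to 10.7%). It became 4 with array weights (32.3%) or 7 arrays (35.3%), and 0 to 3 with 1 array left out (0.944% to 12.8%). Between the shRNAs the count of 0 became 3 with array weights and with 7 arrays, where 34.8% and 41.2% of all genes were called. The replicate block gave 4 for both shRNAs, 1 for shRNA 2 (2.26% of all genes called) and 0 between the shRNAs. It called 1106 of all genes in place of 2078 for both shRNAs. Deviations from the group means of samples that share a number correlated weakly, at 0.03 to 0.15, between vector and shRNA arrays, and at -0.89 to -0.24 between the shRNAs. Each vector array correlated best with its own number in both shRNA groups, a hint from the data and not from the design, whereas no shRNA 1 array did so with shRNA 2, and the numbers were not taken as pairs. Median centring moved the median change of all genes from 0.03 to -0.08, and the signs of the 4 called genes were kept. The cause of these differences was not tested. Signals near background limit CDKN2B, RABL6 and the third SKP2 probe (ILMN_1801391).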
